A study of Mus musculus with 6 samples.

Results

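Cycling cardiac macrophages were taken from the CD45+ (leukocyte) single-cell libraries of mouse hearts as the cells that held at least 10 unique molecular identifiers (UMIs, one per captured transcript) of the complement genes C1qa, C1qb and C1qc together and at least 2 UMIs of the proliferation genes Mki67, Top2a and Birc5 together. Cells with 2 or more UMIs of Cd79a and Cd79b or any UMI of Cd3e, Cd3d or Cd3g were left out, as were barcodes with fewer than 200 genes or more than 10% mitochondrial UMIs. The rule gave 1157 cells, which were 9.14% of the 12658 macrophages that met the same rule without the proliferation genes, out of 32761 kept cells in all. The other 11501 gated macrophages are called non-cycling here. This names a count of transcripts at 1 time and not a measured division.

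The study asked how cardiac leukocytes differ after irradiation of the heart and in the absence of STING, a receptor of the cytosolic DNA-sensing pathway. There were 3 groups of 2 libraries each, all from C57Bl6J mice and collected at 28 days. The first was irradiated with 12 Gy in a single fraction and labelled STING KO, with the word Tmem in its title. The second was irradiated wild type with the same dose, and the third was sham-treated wild type. The labels describe no allele, no sham group of the STING genotype, and no animal, age, sex or batch. The 2 libraries of a group are therefore separate samples by their labels alone, and the p-values below may measure a technical spread. Tmem173, which encodes STING, had 42.3 and 46.4 CPM in irradiated STING knockout, 48.7 and 42.8 in irradiated wild type and 36.2 and 45.7 in sham wild type (CPM, the UMIs summed over its cycling cells and scaled to the same total in each library), so its transcript did not separate the genotypes. A 3′ tag may lie outside an altered part of the gene, so this level checks nothing about the label.

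Macrophages of the adult heart are known to be kept up partly by division of resident cells, often marked by Lyve1, Folr2 and Timd4, and partly by blood monocytes that enter through the chemokine receptor Ccr2. A dividing cell copies its DNA in S phase with the MCM helicase and PCNA, and then passes through G2 and mitosis with cyclin B, CDK1 and the topoisomerase Top2a. Ionising radiation breaks DNA, and p53 then raises the CDK inhibitor Cdkn1a (p21), which can hold a cell out of the cycle. DNA in the cytosol is sensed by cGAS and STING, which switch on type I interferon and its target genes.

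The 1157 cells were 227 and 295 in the libraries labelled irradiated STING knockout, 187 and 248 in irradiated wild type and 98 and 102 in sham wild type. The median depth of a cycling cell was 15132 and 15367 UMIs in irradiated STING knockout, 12698 and 11284.5 in irradiated wild type and 9798.5 and 11261.5 in sham wild type. Non-cycling macrophages were shallower in every library, with medians of 8826 and 8374.5 UMIs in irradiated STING knockout, 7105 and 6044.5 in irradiated wild type and 4989.5 and 5441 in sham wild type. Depth therefore moved with both the group and the cycling state, and shares were compared after every cell had been thinned to 3000 UMIs, with the whole rule applied to the thinned counts. This left out 89 and 156 gated macrophages with fewer UMIs in irradiated STING knockout, 89 and 232 in irradiated wild type and 268 and 205 in sham wild type. A depth of 5000 UMIs, used below as an alternative, left out more, and most in sham. It left out 247 and 364 in irradiated STING knockout, 319 and 709 in irradiated wild type and 1001 and 932 in sham wild type. A pair of libraries shared 4 to 30 kept barcodes, and no cycling cell had its barcode among the cycling cells of another library. The 2 libraries of a group differed by more than the counting noise of UMIs. The chi-square per degree of freedom over genes was 3.90 in irradiated STING knockout, 3.80 in irradiated wild type and 2.42 in sham wild type. This measure leaves out the noise of drawing a limited number of cells, so it does not separate that noise from a difference between libraries.

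The members were well above the proliferation threshold for the most part. Of the 1157 cells, 684 held at least 10 UMIs of the 3 proliferation genes, 734 held all 3 genes and 190 held exactly 2 UMIs. All 3 genes were held by 62.6% and 52.9% of members in irradiated STING knockout. The shares were 66.8% and 69.8% in irradiated wild type and 69.4% and 68.6% in sham wild type. The median member held 15 and 12 such UMIs in irradiated STING knockout, 18 and 15 in irradiated wild type and 16 and 17.5 in sham wild type. Just outside the rule, 834 gated macrophages held 1 such UMI and 10667 held none. The complement threshold was remote, with 1 member at 10 UMIs and 5 otherwise cycling cells at 9. Mki67, a nuclear protein of cycling cells, stood at 562 and 494 CPM in irradiated STING knockout, 573 and 494 in irradiated wild type and 651 and 645 in sham wild type. Top2a, which untangles DNA before chromosomes separate, stood at 586 and 461 CPM in irradiated STING knockout, 547 and 502 in irradiated wild type and 621 and 567 in sham wild type. Birc5 (survivin), a chromosomal passenger protein, stood at 347 and 286 CPM in irradiated STING knockout, 374 and 383 in irradiated wild type and 440.1 and 416 in sham wild type. These levels chose the cells and are given as a description.

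The name was set against genes that the rule does not hold. At 3000 UMIs a cycling cell held a median of 32 and 25 UMIs of 46 G2 and mitosis genes in irradiated STING knockout, 30 and 27 in irradiated wild type and 30 and 31 in sham wild type, and that list holds none of the 3 proliferation genes. The 40 S phase genes gave medians of 8 and 8 UMIs in irradiated STING knockout, 8 and 7 in irradiated wild type and 7 and 6 in sham wild type, and a non-cycling macrophage had a median of 1 UMI of either list. Cells with more S phase than G2 and mitosis UMIs made up 18.1% and 22.1% of cycling cells in irradiated STING knockout, 14.3% and 11.1% in irradiated wild type and 15.1% and 12.2% in sham wild type. The macrophage identity was carried by Csf1r, the receptor of the macrophage growth factor CSF1, at 696 and 637 CPM in irradiated STING knockout, 664 and 633 in irradiated wild type and 882 and 816 in sham wild type. Adgre1 (F4/80) stood at 387 and 365 CPM in irradiated STING knockout, 415 and 367 in irradiated wild type and 407 and 354 in sham wild type. All 16 core macrophage genes were detected.

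Markers of other cells were detected in every library. The 10 T cell markers summed to between 21.7 and 35.2 CPM over the 6 libraries, with Cd3e, Cd3d and Cd3g at 0 by the rule, and the 10 B cell markers to between 235 and 629 CPM. The 11 endothelial markers summed to between 146 and 618 CPM and the 8 fibroblast markers to between 191 and 689 CPM, none at 0 in all libraries, beside 14094 to 18366 CPM of the 16 core macrophage genes. The 10 neutrophil markers, with Camp at 0, summed to 1128 and 1629 CPM in irradiated STING knockout, 133 and 393 CPM in irradiated wild type and 460 and 2898 CPM in sham wild type. Both knockout libraries and the second sham library thus held more of them than the other 3. The part of these transcripts in the results below was not tested, apart from the alternative without the cells of highest doublet score, among which there were 66 cycling macrophages.

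Promoter sequences of these genes show a shared element. Many G2 and mitosis genes carry the cell cycle homology region, written TTTGAA, through which the DREAM complex silences them outside the cycle. In RefSeq promoters of GRCm38.p6, taken from 250 bases before to 50 bases after the start and searched on both strands, TTTGAA was found in 32 of the 42 promoters of 39 matched G2 and mitosis genes (76.2%), in 3 of 36 of the S phase list (8.33%) and in 5878 of all 32851 (17.9%). CCAAT was found in 34 of the 42 G2 and mitosis promoters (81.0%) and in 37.4% of all. GGCGGGAA, an E2F-like motif, was found in 8 of the 36 S phase promoters (22.2%) and in 2.19% of all. A match is a description of letters and not a bound site. Mki67 and Top2a are shown because the rule rests on them, each as the 250 bases before its start, 5′ to 3′ on the gene's strand, with TTTGAA or its reverse complement in capitals. Mki67 (chr7:135716380-135716629, minus strand) holds it at -116 and -98 bases from the start and Top2a (chr11:99024190-99024439, minus strand) at -179 and -23. Birc5, the other gene of the rule, holds none in the window.
Mki67: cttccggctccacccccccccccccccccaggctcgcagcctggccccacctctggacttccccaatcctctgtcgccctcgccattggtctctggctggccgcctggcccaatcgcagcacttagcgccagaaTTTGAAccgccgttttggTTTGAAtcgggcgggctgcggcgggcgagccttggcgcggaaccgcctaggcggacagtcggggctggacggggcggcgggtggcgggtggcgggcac
Top2a: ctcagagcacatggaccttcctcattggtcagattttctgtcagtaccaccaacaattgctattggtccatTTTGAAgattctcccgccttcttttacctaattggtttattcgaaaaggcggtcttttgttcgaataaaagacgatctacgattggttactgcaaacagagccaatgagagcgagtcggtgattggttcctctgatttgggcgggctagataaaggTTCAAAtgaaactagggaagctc

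Cycling macrophages were more frequent in the irradiated hearts of both genotypes than in sham hearts. At 3000 UMIs per cell they were 155 of 2213 gated macrophages (7.0%, 95% exact Clopper-Pearson interval 5.98 to 8.15) and 172 of 2262 (7.60%, 6.54 to 8.77) in irradiated STING knockout. They were 140 of 1486 (9.42%, 7.98 to 11.0) and 199 of 2134 (9.33%, 8.12 to 10.6) in irradiated wild type. In sham wild type they were 73 of 1842 (3.96%, 3.12 to 4.96) and 82 of 2155 (3.81%, 3.04 to 4.70). The irradiated wild-type libraries were the highest, the sham libraries the lowest and the STING knockout libraries between them, with no overlap of any 2 groups. These intervals and those below cover counting error only.

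The mean share was 7.30% ± 0.424 in irradiated STING knockout, 9.37% ± 0.0679 in irradiated wild type and 3.88% ± 0.112 in sham wild type (SD, n = 2 each). Irradiated wild type exceeded sham wild type by 5.49 percentage points, a ratio of 2.41. Irradiated STING knockout exceeded sham wild type by 3.42 points, a ratio of 1.88, and was 2.07 points below irradiated wild type, a ratio of 0.779. Each difference had p = 0.33 in an exact two-sided permutation test, which is the smallest p that 2 libraries against 2 allow. Without thinning, the share was 11.5% ± 1.54 in irradiated STING knockout, 11.6% ± 0.931 in irradiated wild type and 4.60% ± 0.193 in sham wild type, so that the genotypes overlapped (p = 1, exact permutation test). With at most 5% mitochondrial UMIs the knockout share was 7.57% ± 0.909 and the irradiated wild-type share 7.21% ± 0.276, which turned the direction, while sham wild type stood at 3.32% ± 0.555.

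**Figure D1:**
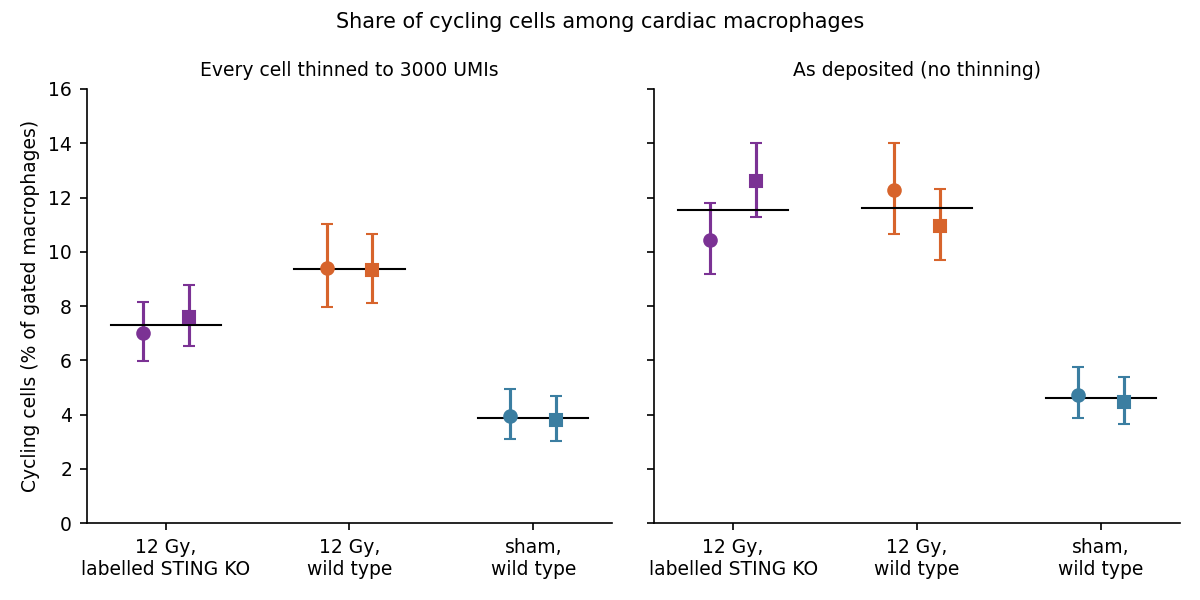
Percent of gated macrophages that met the cycling rule, per library, at 3000 UMIs per cell (left) and at the deposited depth (right). Points are libraries (circle for replicate 1, square for replicate 2) with 95% Clopper-Pearson intervals and lines are group means; the groups separate at equal depth at 7.30%, 9.37% and 3.88%, and the irradiated groups overlap at the deposited depth.

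The same share was taken in lymphocytes of these libraries. In B cells (at least 2 UMIs of Cd79a and Cd79b and fewer than 2 of the complement genes) the share with the proliferation genes at 3000 UMIs was 1.55% and 0.976% in irradiated STING knockout, 2.44% and 3.0% in irradiated wild type and 0.629% and 0.346% in sham wild type. In T cells it was 4.27% and 7.69% in irradiated STING knockout, 10.0% and 5.41% in irradiated wild type and 4.04% and 3.77% in sham wild type, from 74 to 212 cells a library. By these percents B cells followed the order of the macrophages, and in T cells the irradiated groups overlapped each other and lay above sham. Cycling B cells were 5 of 323 and 4 of 410 in irradiated STING knockout and 4 of 164 and 22 of 733 in irradiated wild type. In sham wild type they were 1 of 159 and 1 of 289. Among T cells the first knockout library held 5 of 117 and the first sham library 4 of 99. The exact Clopper-Pearson intervals of all libraries overlapped in both gates, so these counts do not settle either order. Across all lineages, 2101 kept cells passed the proliferation threshold at the deposited depth, without thinning. Of these, 472 held at least 2 UMIs of Cd79a and Cd79b, and a further 163 held any Cd3 UMI. The cycling macrophages were 55.1% of the 2101.

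Cycling macrophages occurred in every identity class at 3000 UMIs, and their share was lowest among cells with resident markers alone. At that depth 3000 UMIs each gated macrophage was placed by whether it held at least 1 UMI of Lyve1 (a hyaluronan receptor), Folr2 (a folate receptor) or Timd4 (a phosphatidylserine receptor), of Ccr2, of both kinds, or of neither. Among cells with resident markers alone, 4.41% and 5.17% were cycling in irradiated STING knockout, 7.42% and 5.58% in irradiated wild type and 2.84% and 3.61% in sham wild type. Among cells with Ccr2 alone, 9.64% and 9.20% were cycling in irradiated STING knockout, 11.05% and 12.68% in irradiated wild type and 7.51% and 4.24% in sham wild type. The class with resident markers alone was below the Ccr2 class in 6 of 6 libraries, by 4.22 points in the mean (SD 2.13, n = 6). It was also below the class with both kinds by 2.56 points and below the class with neither by 3.62 points, in 6 of 6 libraries each. All 3 orders held in 6 of 6 libraries at 5000 UMIs. At 2000 UMIs the order against the Ccr2 class held in 6 of 6, and the orders against both kinds and neither in 5 of 6, since in the second sham library 0 of 35 cells with both kinds and 2.39% of cells with neither were cycling, against 3.04% with resident markers alone. The order among the other classes varied between libraries. Since the cells had been divided by the proliferation genes, these differences are given as a description and without a test.

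The class with neither marker held 9.27% and 10.84% cycling cells in irradiated STING knockout, 8.28% and 13.76% in irradiated wild type and 4.53% and 4.04% in sham wild type. The class with both kinds held 5.92% and 6.36% in irradiated STING knockout, 11.73% and 6.92% in irradiated wild type and 8.57% and 4.84% in sham wild type, and sham overlapped both irradiated groups. In the resident class the irradiated wild-type libraries lay above the sham libraries without overlap at 2000, 3000 and 5000 UMIs. They did so at 3000 UMIs in the Ccr2 and neither classes too, but overlapped sham at 2000 UMIs in the Ccr2 class (7.01% and 9.62% against 9.15% and 5.52%) and at 5000 UMIs in the neither class (10.4% and 16.5% against 10.9% and 6.79%). In the class with both kinds irradiated wild type lay above sham at 2000 and 5000 UMIs, but not at 3000. The knockout libraries lay below both irradiated wild-type libraries in the class with both kinds at 2000, 3000 and 5000 UMIs. In the resident and Ccr2 classes they did so at 3000 and 5000 UMIs, and in the neither class at 2000 UMIs only. At 2000 UMIs the resident and Ccr2 classes overlapped between the genotypes. The resident class held 5.14% and 3.99% in knockout against 6.13% and 4.79% in irradiated wild type. The Ccr2 class held 6.74% and 8.08% against 7.01% and 9.62%. With 2 libraries a group, none of these separations can reach an exact permutation p below 0.33.

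**Figure D2:**
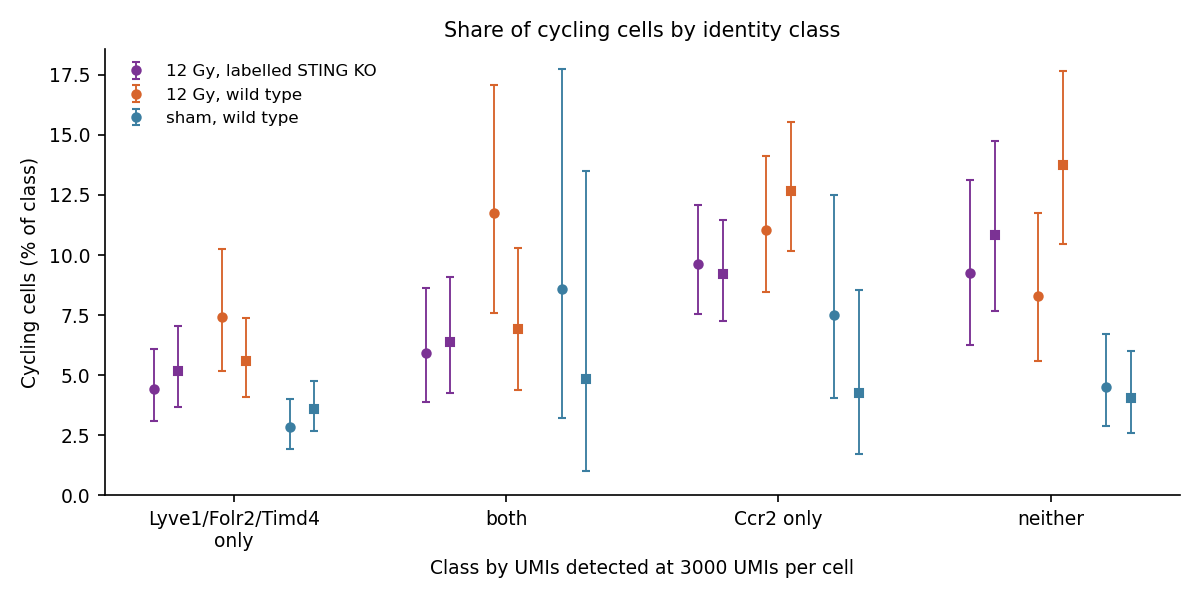
Percent of macrophages that were cycling at 3000 UMIs within 4 classes set by at least 1 UMI of Lyve1, Folr2 or Timd4 and of Ccr2; points are libraries (circle for replicate 1, square for replicate 2) with 95% Clopper-Pearson intervals. The resident-only class lies lowest in each library, with group means of 4.79%, 6.50% and 3.22% in irradiated STING knockout, irradiated wild type and sham wild type, against 9.42%, 11.9% and 5.88% in the Ccr2-only class.

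The make-up of the cycling cells differed between irradiated and sham hearts more than between genotypes. Cells with resident markers alone were 22.0% ± 0.756 of cycling macrophages in irradiated STING knockout, 23.1% ± 0.678 in irradiated wild type and 51.1% ± 12.2 in sham wild type (SD, n = 2). Cells with Ccr2 alone were 42.5% ± 0.965 in irradiated STING knockout, 40.1% ± 0.142 in irradiated wild type and 13.2% ± 6.56 in sham wild type. The non-cycling macrophages differed the same way. Their resident class averaged 34.7% in irradiated STING knockout, 35.0% in irradiated wild type and 61.6% in sham wild type, and their Ccr2 class 32.3% in irradiated STING knockout, 31.0% in irradiated wild type and 8.33% in sham wild type. Within a library, the resident class was 11.7 points less frequent among cycling than non-cycling cells in the mean, lower in 6 of 6, and the Ccr2 class 8.07 points more frequent, higher in 6 of 6. Each of these held in 6 of 6 libraries at 5000 UMIs and in 5 of 6 at 2000 UMIs, where the resident class was 60.3% of cycling and 58.0% of non-cycling cells in the second sham library and the Ccr2 class 29.2% and 31.1% in the first irradiated wild-type library.

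By single genes, Ccr2 was found in 59.35% and 58.14% of cycling cells in irradiated STING knockout, 56.43% and 51.26% in irradiated wild type and 26.03% and 12.20% in sham wild type. The B cell gate, which should hold little Ccr2, gave 11.5% in irradiated STING knockout, 10.7% in irradiated wild type and 8.77% in sham wild type in the mean, and the endothelial gate between 0.385% and 3.56% over the libraries. The B cells had median depths of 5421 to 6224 UMIs a library before thinning and the cycling macrophages 10139 to 16182. The second sham library was thus near the share of the B cells, and the other 5 libraries were above it. Folr2 was found in 36.13% and 34.30% of cycling cells in irradiated STING knockout, 36.43% and 29.65% in irradiated wild type and 46.58% and 53.66% in sham wild type, with 0.61% to 3.72% in the B cell gate over the libraries. Lyve1 was found in 17.42% and 15.12% in irradiated STING knockout, 11.43% and 18.09% in irradiated wild type and 23.29% and 46.34% in sham wild type, with 0% to 2.08% in the B cell gate. Timd4, which marks the longest-lived resident macrophages, was found in 0% and 2.33% of cycling cells in irradiated STING knockout, 0.71% and 2.01% in irradiated wild type and 8.22% and 13.41% in sham wild type, with 0.31% to 1.22% in the B cell gate. The first library of each irradiated group was thus not above the B cells, and the second rested on 4 cells each. In the first knockout library 0 of 155 cells had a Timd4 UMI, which with a floor of 3 counts allows a share of cells with a UMI of up to 1.94%. In non-cycling cells Timd4 was found in 5.05% and 7.32% in irradiated STING knockout, 6.54% and 9.10% in irradiated wild type and 20.97% and 23.49% in sham wild type. Cycling cells of every library thus held it less often than non-cycling cells of the same library.

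Against non-cycling macrophages of the same library, cycling cells had lower levels of most identity genes. Of 20 resident identity genes 19 were lower and none higher (median log2 difference -0.88), of 16 core macrophage genes 15 were lower (-0.53), and of 8 major histocompatibility complex (MHC) class II genes 7 were lower and 1 higher (-0.52). Of 20 recruited identity genes 11 were lower and 2 higher (-0.22). Over all 12883 genes tested 39.7% were called at an adjusted p below 0.05 (19.5% higher and 20.3% lower) by edgeR's quasi-likelihood test with the library as a block, with a median of -0.03. The rule drew this contrast, so nothing is read from these counts.

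The resident genes with the largest negative differences were Ccl8, a monocyte-attracting chemokine (log2 -1.53), the scavenger receptors Colec12 (-1.42) and Cd163 (-1.41), and Lyve1 (-1.29). Folr2 differed by -0.96, Timd4 by -0.98 and Ccr2 by 0.11, of which Ccr2 was not called. The monocyte genes Chil3 (-1.05) and Ly6c2 (-0.94) were lower too, whereas Fn1 (fibronectin, 0.62) and S100a4 (0.59) were higher. Apoe, a lipid carrier (-1.19), and Mertk, an uptake receptor for dying cells (-0.97), were the lowest of the core list. In the growth factor list, 16 of 21 tested genes were lower, among them the transcription factors Bhlhe41 (-1.13) and Klf2 (-0.83) and the growth factor Igf1 (-0.90). The 40 S phase genes (median 2.44) and 46 G2 and mitosis genes (5.57) were all higher, as the rule makes likely. Of the CDK inhibitors, Cdkn2c (p18, 3.13), Cdkn2d (p19, 1.80) and Cdkn2a (1.23) were higher in cycling cells. The whole list of 14 CDK inhibitor and quiescence genes was lower there as a sum. In cycling cells it averaged 2472 CPM in irradiated STING knockout, 2723 in irradiated wild type and 3182 in sham wild type. Non-cycling cells averaged 2542, 3085 and 3305 CPM in the same order.

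**Figure D3:**
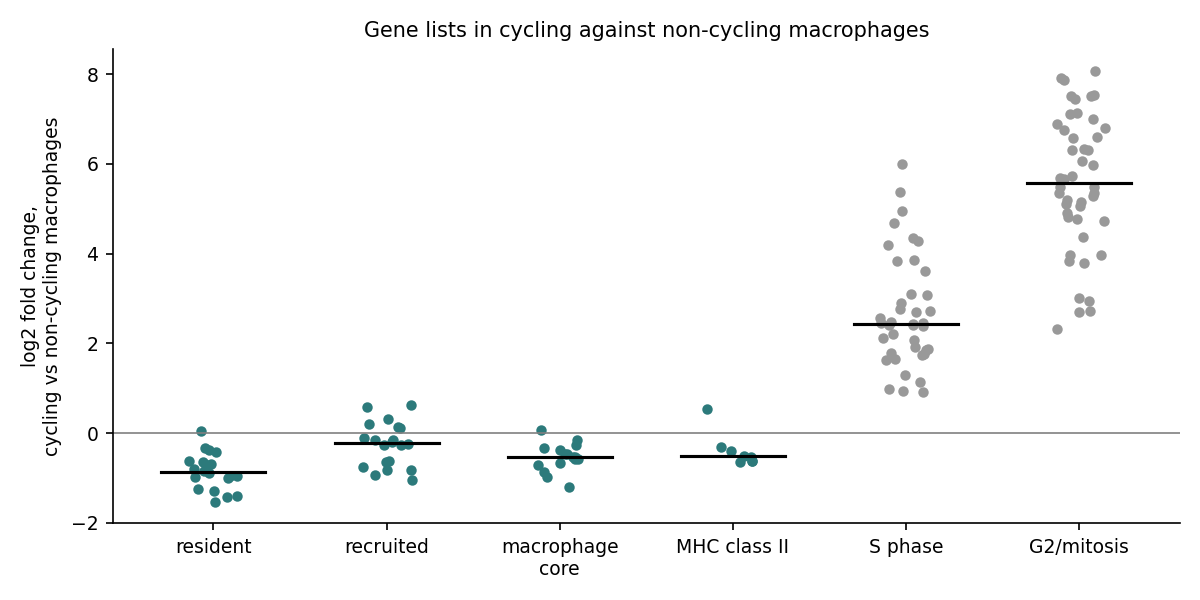
Log2 fold difference of summed expression, cycling over non-cycling macrophages within libraries, for the genes of 6 lists; points are genes and bars are list medians. Resident, core and MHC class II genes lie mostly below 0 (medians -0.88, -0.53 and -0.52) and cell cycle genes, chosen by the rule, lie above it.

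Irradiated wild-type cycling macrophages had higher interferon-stimulated, MHC class II and Ccr2 expression and lower resident scavenger receptor expression than sham wild-type ones. edgeR called 55 of 10825 genes (0.508%), 34 higher (0.314%) and 21 lower (0.194%), with a median log2 fold change of 0.00 over all genes. Of 52 interferon-stimulated genes, 50 were tested and 12 were higher and none lower (median 1.09, positive in 50). Of 8 MHC class II genes 4 were higher and none lower (0.87). Of 20 resident identity genes 5 were lower and none higher (-0.55), and of 20 recruited identity genes 2 were higher and none lower (0.06).

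Among the interferon-stimulated genes, Irf7 (the factor that amplifies interferon production, chr7:141262706-141266481, GRCm38) stood at 56.4 and 51 CPM in irradiated STING knockout, 148 and 108 in irradiated wild type and 28.1 and 31.3 in sham wild type. Its log2 fold change in irradiated over sham wild type was 2.18 ± 0.20 (SE; edgeR adjusted p = 0.00883). The irradiated wild-type libraries lay well above the other 4, and the knockout libraries were nearer to sham. Ifit3, an antiviral effector, had 31.8 and 30.7 CPM in irradiated STING knockout, 83.1 and 55.1 in irradiated wild type and 20.1 and 8.02 in sham wild type, a change of 2.43 ± 0.34 (edgeR adjusted p = 0.0325). Cxcl10, a T cell attractant, had 230.2 and 291 CPM in irradiated STING knockout, 669.7 and 519 in irradiated wild type and 238 and 298 in sham wild type, a change of 1.23 ± 0.18 (edgeR adjusted p = 0.036). For Cxcl10 the knockout and sham libraries overlapped. The other called members were Ms4a4c (2.41), Ly6a (1.85), Rsad2 (1.30), Isg15 (1.24), Ifi35 (1.23), Oasl2 (1.15), Bst2 (1.15), Phf11b (1.03) and Trim30a (0.79).

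The promoters of Ifit3 and Cxcl10 are shown because these genes were higher together. The interferon-stimulated response element, searched on both strands as GAAA, any 2 bases and GAAA, was found in 24 of 42 promoters of 38 matched interferon-stimulated genes (57.1%) and in 3.44% of all promoters of the same length. The capitals mark it in the 250 bases before each start, at -156 and -122 in Ifit3 (chr19:34583279-34583528, plus strand) and at -213 in Cxcl10 (chr5:92348890-92349139, minus strand).
Ifit3: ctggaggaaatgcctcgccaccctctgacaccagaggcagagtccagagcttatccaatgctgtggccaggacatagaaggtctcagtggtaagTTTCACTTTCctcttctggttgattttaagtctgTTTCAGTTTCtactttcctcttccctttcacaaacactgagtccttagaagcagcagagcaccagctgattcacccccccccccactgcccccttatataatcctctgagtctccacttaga
Cxcl10: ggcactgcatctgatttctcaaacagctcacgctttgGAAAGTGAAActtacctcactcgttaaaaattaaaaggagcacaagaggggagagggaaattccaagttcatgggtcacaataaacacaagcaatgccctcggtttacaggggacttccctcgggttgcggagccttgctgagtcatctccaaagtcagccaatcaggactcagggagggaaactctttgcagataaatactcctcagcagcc

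The resident genes that fell included Cd163, the haemoglobin scavenger receptor (chr6:124304656-124330527), with 26.8 and 44.4 CPM in irradiated STING knockout, 23.6 and 44.5 in irradiated wild type and 265 and 225 in sham wild type. Its log2 fold change in irradiated over sham wild type was -2.74 ± 0.28 (edgeR adjusted p = 0.00883), and all 4 irradiated libraries were far below both sham libraries. Colec12 had 6.36 and 10.2 CPM in irradiated STING knockout, 3.48 and 13.3 in irradiated wild type and 55.3 and 53 in sham wild type, a change of -2.56 ± 0.43 (edgeR adjusted p = 0.046). F13a1 (coagulation factor XIII, -0.72), Stab1 (a scavenger receptor, -0.61) and Selenop (a selenium carrier, -0.60) fell less. Lyve1 had 152 and 171 CPM in irradiated STING knockout, 97.4 and 184 in irradiated wild type and 189.9 and 349 in sham wild type, and its log2 fold change of -0.86 ± 0.32 was not called (edgeR adjusted p = 0.315). Folr2 had 317 and 322 CPM in irradiated STING knockout, 307 and 363 in irradiated wild type and 448 and 459 in sham wild type and a log2 fold change of -0.35 (edgeR adjusted p = 0.261). Timd4 had 6.36 and 38 CPM in irradiated STING knockout, 16.2 and 26.5 in irradiated wild type and 46.2 and 73 in sham wild type and a log2 fold change of -1.40 (edgeR adjusted p = 0.402). None of these 3 genes passed the test, so no fall is read from them.

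Ccr2 (chr9:124101950-124113557) had 495 and 599 CPM in irradiated STING knockout, 472 and 379.6 in irradiated wild type and 207 and 124 in sham wild type. Its log2 fold change was 1.46 ± 0.21 in irradiated over sham wild type (edgeR adjusted p = 0.0351), and the groups did not overlap. Ms4a4c, a gene of both the recruited and the interferon lists, had 47.5 and 52 CPM in irradiated STING knockout, 147 and 70.3 in irradiated wild type and 28.1 and 16 in sham wild type. Of the MHC class II genes, H2-Ab1 had 4460.0 and 5092 CPM in irradiated STING knockout, 5841 and 4422 in irradiated wild type and 3273 and 2523 in sham wild type, a change of 0.91 ± 0.15 (edgeR adjusted p = 0.0453). H2-Eb1 rose by 0.94, H2-Aa by 0.87 and the invariant chain Cd74 by 0.79.

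Among genes of no identity list, Ccl17, a chemokine of dendritic cells and some monocyte-derived macrophages, had 17.4 and 35 CPM in irradiated STING knockout, 18.9 and 24.9 in irradiated wild type and 0 and 0.802 in sham wild type. It was counted in 124 UMIs in irradiated wild type and 1 UMI in sham wild type, a ratio of 49.6 after depth (95% exact counting interval 8.75 to 1976; edgeR adjusted p = 0.0453). The 8 dendritic cell markers, Ccl17 among them and none at 0, summed to 55.3 and 111 CPM in irradiated STING knockout, 41.8 and 78.0 CPM in irradiated wild type and 23.1 and 14.4 CPM in sham wild type, and their part in the Ccl17 result was not tested. Ccnd1 (cyclin D1), which couples growth signals to the G1 phase, had 192 and 196 CPM in irradiated STING knockout, 195 and 172 in irradiated wild type and 79.4 and 90.7 in sham wild type, a change of 1.18 ± 0.13 (edgeR adjusted p = 0.0127). Fabp5, a fatty acid carrier, rose by 1.31 ± 0.19 and Mmp12, the macrophage elastase, by 0.85 ± 0.14. Cfb, complement factor B (2.29), Gdf3 (2.18), Ch25h, which makes 25-hydroxycholesterol (1.46), and Gm21188 (1.81) were also higher. The Fc receptor Fcgr1, of the macrophage core list, rose by 0.86.

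Genes that fell outside the identity lists included Sgce (epsilon-sarcoglycan), at 3.32 and 2.59 CPM in irradiated STING knockout, 3.09 and 3.98 in irradiated wild type and 39.2 and 30.5 in sham wild type, a change of -3.18 ± 0.32 (edgeR adjusted p = 0.00883). Hpgd, which degrades prostaglandins, fell by 1.33 on the log2 scale, Ccl24, an eosinophil chemokine, by 1.25, Klf2, a quiescence-associated factor, by 0.73, Mt2 (a metallothionein) by 1.00 and St3gal6 by 0.99. Adam33 (-1.75) and Xlr (-1.55) were lower too.

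**Figure D4:**
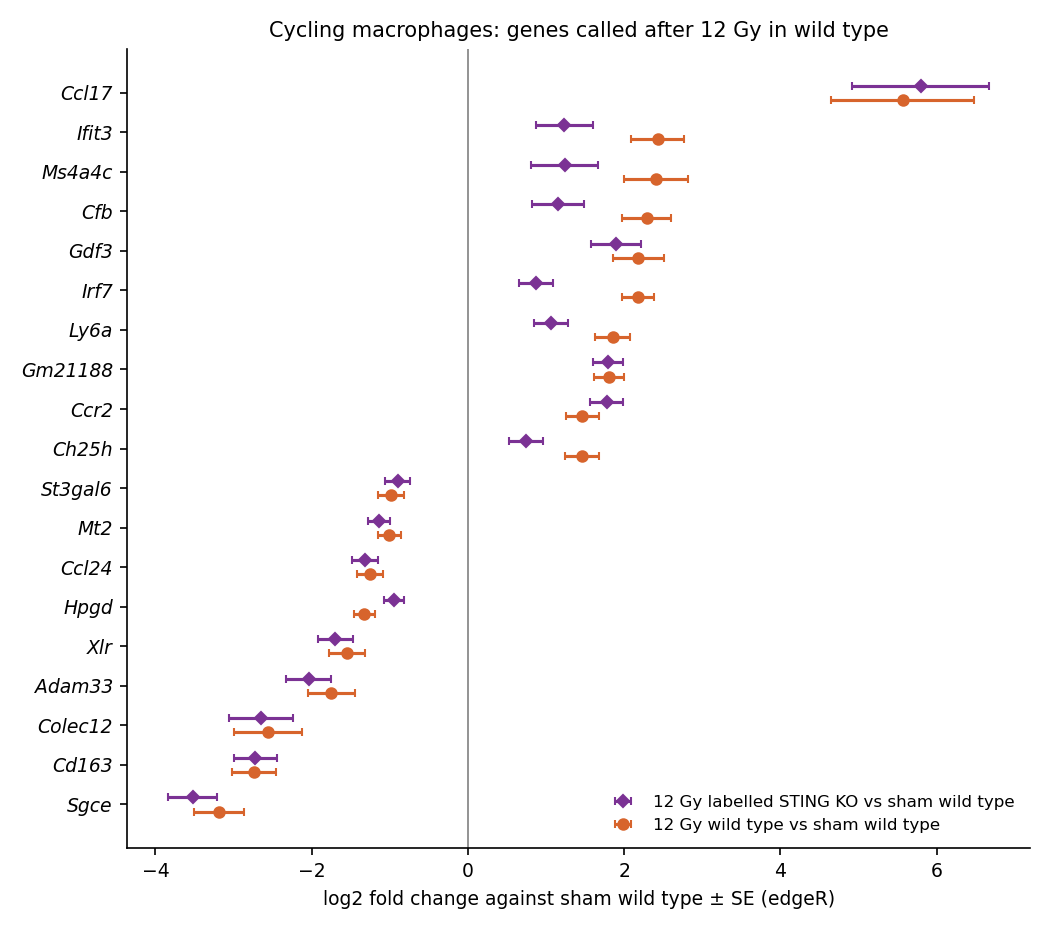
Log2 fold change ± SE over sham wild type in cycling macrophages of genes with large called differences between irradiated and sham wild type, those named in the text; diamonds are irradiated STING knockout and circles irradiated wild type. Irf7 lies at 0.87 in STING knockout and 2.18 in wild type, whereas Cd163 lies at -2.72 and -2.74.

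Cell cycle and damage genes gave little difference between irradiated and sham wild-type cycling cells. Cells of both groups had to pass the proliferation threshold, which favours like levels of cell cycle genes. For those genes the lack of calls therefore says little about irradiation. No gene of the 40 S phase, 46 G2 and mitosis, 25 tested p53 target or 21 repair genes was called by edgeR, with 4, 4, 2 and 1 at an unadjusted p below 0.05 and 0, 1, 0 and 0 called by DESeq2. Their medians were 0.09, -0.12, 0.16 and -0.09. In non-cycling macrophages 495 of 13065 genes were called (3.79%, with 2.06% higher and 1.73% lower), and 9 of 27 tested p53 targets were higher there and none lower (median 0.56), among them Mdm2, Bax, Ccng1, Gdf15 and Aen. Of 21 inflammatory cytokine genes none was called in cycling cells (8 at an unadjusted p below 0.05, 1 called by DESeq2, median 0.35) and 7 were higher in non-cycling cells (0.44). The non-cycling sums held more cells and UMIs, so a difference in counts of calls is no test of a difference between the populations.

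The number of calls leaned on single libraries. Without the first sham library edgeR called 0 genes (1154 at an unadjusted p below 0.05), without the second sham library 2, without the first irradiated wild-type library 8 and without the second 36. Of the 31 called genes named by the rule for this comparison, 0 kept their call in every such fit. The interferon median stayed between 0.99 and 1.28 with all 50 genes positive, and the MHC class II median between 0.69 and 1.06 with all 8 positive, when any 1 library was left out. With cells of at most 5% mitochondrial UMIs, which left 14 and 15 sham cells, the interferon median was 0.53 with 36 of 43 tested genes positive and the MHC class II median 1.03 with all 8 positive.

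Irradiated STING knockout cycling macrophages had lower levels of 2 interferon-stimulated genes than irradiated wild-type ones, and few other genes differed. edgeR called 11 of 10825 genes (0.102%), 4 higher (0.037%) and 7 lower (0.0647%), with a median of 0.00 over all genes. Of 50 tested interferon-stimulated genes 2 were lower and none higher, with a negative sign in 49 and a median of -0.63 (33 at an unadjusted p below 0.05, 9 called by DESeq2). The median was -0.42 without the first irradiated wild-type library, and -0.29 with 14 of 43 tested genes positive in cells of at most 5% mitochondrial UMIs. No resident, recruited or MHC class II gene was called, with 3, 5 and 0 at an unadjusted p below 0.05 and 1, 0 and 0 called by DESeq2. Their medians were 0.11, 0.30 and -0.09.

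Irf7, given above per library, was lower in irradiated STING knockout than in irradiated wild type by log2 -1.31 ± 0.16 (edgeR adjusted p = 0.0216). Oasl2, an oligoadenylate synthetase-like gene, had 70.7 and 59.9 CPM in irradiated STING knockout, 149 and 119 in irradiated wild type and 62.3 and 65 in sham wild type and differed by -1.10 ± 0.14 (edgeR adjusted p = 0.025). Both knockout libraries were below both irradiated wild-type libraries in these genes. Cxcl10 differed by -1.24 ± 0.18 (edgeR adjusted p = 0.0506) and Ifit3 by -1.19 (edgeR adjusted p = 0.179), without passing the test. Isg15 had 72.4 and 102 CPM in irradiated STING knockout, 87.4 and 84.6 in irradiated wild type and 38.2 and 38.5 in sham wild type and differed by -0.02, so its knockout and irradiated wild-type libraries overlapped. Both calls were lost without the second knockout library (Irf7 -1.25, Oasl2 -1.0), without the first irradiated wild-type library (-1.07 and -0.92) and without either sham library (-1.31 and -1.10 each).

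Nfkbid, an IκB protein of the NF-κB system, had 104 and 102 CPM in irradiated STING knockout, 170.1 and 187 in irradiated wild type and 131 and 109 in sham wild type, a difference of -0.85 ± 0.11 (edgeR adjusted p = 0.0254). The histone gene Hist1h2ap had 253 and 219.9 CPM in irradiated STING knockout, 1449 and 920.1 in irradiated wild type and 724 and 1033 in sham wild type, a difference of -2.38 ± 0.24 (edgeR adjusted p = 0.00605). Gm10076 (-2.14) and G530011O06Rik (-2.28) also fell. Hist1h2ap and Gm10076 have near-identical copies in the genome, so their counts are uncertain.

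Aldh1a3, a retinal dehydrogenase, had 26.3 and 27.3 CPM in irradiated STING knockout, 0 and 0 in irradiated wild type and 2.01 and 0 in sham wild type. It was counted in 232 UMIs in irradiated STING knockout and 0 in irradiated wild type, at least 50.1-fold higher against a floor of 3 counts over the group (edgeR adjusted p = 0.00367). AY036118 (1.84) and Gm42418 (1.15), which overlap on opposite strands at a ribosomal RNA locus, and Rpgrip1 (1.46) were also higher. Ccr2 differed by 0.31 (edgeR adjusted p = 0.688), Lyve1 by 0.14 (0.937), Folr2 by -0.12 (0.804) and Timd4 by 0.06 (0.991). Without the second knockout library edgeR called 7 genes in this comparison, and 5 of the 11 called genes kept their call when any 1 library was left out.

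Irradiated STING knockout cycling macrophages differed from sham wild-type ones in 66 of 10825 genes (0.61%), 29 higher (0.268%) and 37 lower (0.342%) by edgeR. This comparison joins dose and genotype and shares its libraries with the previous ones, so its values are given side by side with theirs. Of the resident genes 3 fell and none rose (median -0.43), with Cd163 at -2.72 ± 0.27 and Colec12 at -2.64. Ccr2 rose by 1.78 ± 0.21 (edgeR adjusted p = 0.0107) and was the 1 recruited gene called. H2-Eb1 (0.85) and Cd74 (0.66) rose among the 8 MHC class II genes (median 0.73). Of the interferon-stimulated genes Isg15 alone was called (1.22, edgeR adjusted p = 0.0445), with 42 of 50 positive and a median of 0.49. Ccnd1 rose by 1.21, Fabp5 by 1.37, Mmp12 by 0.96, and Ccl17 reached 239 UMIs against 1, a ratio of 62.0 (95% exact counting interval 11.0 to 2458). Aldh1a3 reached 232 UMIs against 2, a ratio of 30.1 (8.24 to 249.9).

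In the knockout against sham, 5 of 46 G2 and mitosis genes were lower and none higher, with a median of -0.41 and 46 negative. Kif23, a kinesin of cell division, had 166 and 155 CPM in irradiated STING knockout, 193 and 174 in irradiated wild type and 286 and 269.6 in sham wild type, a difference of -0.76 ± 0.11 (edgeR adjusted p = 0.0213). Kif20a (-0.86), Cdc20, which triggers anaphase (-0.74), Ube2c, a ubiquitin conjugase of mitotic exit (-0.66), and Tubb4b (-0.84) also fell. The proliferation genes that chose the cells move with this list, and the knockout cells were the deepest. The parts of that choice and of depth in this result were not tested. When the rule was applied at 3000 UMIs in every cell, 1 of the 46 was called and the median was -0.21.

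Other genes lower in irradiated STING knockout than sham wild type were Klf2 (-1.28), Apoe (-0.54), Sgce (-3.52), Ccn1 (-2.40), Cdc25b (-1.04) and Adam33 (-2.04). Malt1 (1.24), Tiam1 (1.50), Sh2d1b1 (1.36) and Rpgrip1 (1.56) were higher. The haemoglobin genes Hbb-bs (-5.20), Hba-a2 (-4.78) and Hba-a1 (-4.29) were lower, and the 5 erythroid markers, none at 0, summed to 8.57 and 7.17 CPM in irradiated STING knockout, 12.0 and 51.4 CPM in irradiated wild type and 82.4 and 308 CPM in sham wild type. The part of erythroid transcripts in that difference was not tested. Without the first sham library edgeR called 21 genes, without the second 8, and without the second knockout library 22, and 4 of the 33 called genes named by the rule kept their call when any 1 library was left out.

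The response to irradiation differed between cycling and non-cycling macrophages for 4 MHC class II genes and 2 p53 targets, among others. A test of the difference itself (population by group interaction, edgeR, library as a block) called 21 of 12883 genes for irradiated over sham wild type (0.163%), 8 with a larger value in cycling cells (0.0621%) and 13 with a smaller one (0.101%). The genes named here were chosen after their values were seen. The proliferation genes divided the 2 populations, and the part of that division in these interactions was not tested. Of 8 MHC class II genes 4 were called, all larger in cycling cells, with 8 positive and a median interaction of 0.59. Of 27 tested p53 targets 2 were called, both smaller in cycling cells, with a median of -0.32. None of 50 interferon-stimulated genes was called by edgeR or DESeq2 (3 at an unadjusted p below 0.05), with a median of 0.05.

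H2-Aa had 5274 and 5967 CPM in irradiated STING knockout, 7066 and 5620.3 in irradiated wild type and 4165 and 3208 in sham wild type in cycling cells. The non-cycling sums of the same libraries gave 6271 and 6536 CPM in irradiated STING knockout, 8743 and 6879.7 in irradiated wild type and 7343 and 5703 in sham wild type. The cycling sham libraries were thus the lowest of all 12 sums, and the difference of the 2 responses was 0.61 ± 0.07 (edgeR adjusted p = 0.000314). H2-Ab1 (0.64 ± 0.07), H2-Eb1 (0.62 ± 0.07) and Cd74 (0.57 ± 0.06) gave like values. Under leaving out any 1 library and under DESeq2 the 4 calls were kept, and with at most 5% mitochondrial UMIs (14 and 15 sham cells) the values of the 4 were 0.82 to 1.20 and not called.

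Fabp5 had 100.0 and 79 CPM in irradiated STING knockout, 77.7 and 86.9 in irradiated wild type and 31.1 and 38.5 in sham wild type in cycling cells. Non-cycling cells had 75.9 and 83.4 CPM in irradiated STING knockout, 75.8 and 75.3 in irradiated wild type and 77.4 and 96.8 in sham wild type. The interaction was 1.53 ± 0.19 (edgeR adjusted p = 0.000806). It was low in the cycling sham libraries alone, and with the rule applied at 3000 UMIs its interaction was 0.63 and not called. Spp1 (osteopontin) gave 1.69 ± 0.21 and Il1b (interleukin-1β) 1.00 ± 0.18, both positive.

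Cdkn1a, the CDK inhibitor p21, had 473 and 351 CPM in irradiated STING knockout, 511 and 668 in irradiated wild type and 579.8 and 719 in sham wild type in cycling cells. In non-cycling cells it had 425 and 398 CPM in irradiated STING knockout, 636 and 727 in irradiated wild type and 428 and 468 in sham wild type. Its log2 fold change in irradiated over sham wild type was 0.63 ± 0.09 in non-cycling cells (edgeR adjusted p = 0.024) and -0.06 ± 0.18 in cycling cells (edgeR adjusted p = 0.925), an interaction of -0.67 ± 0.11 (edgeR adjusted p = 0.0134). Phlda3, a p53-induced AKT inhibitor, had 26.3 and 18.9 CPM in irradiated STING knockout, 26.3 and 33.2 in irradiated wild type and 22.1 and 27.3 in sham wild type in cycling cells. Its level in non-cycling cells was 34.8 and 29.6 CPM in irradiated STING knockout, 45.5 and 47.9 in irradiated wild type and 15.1 and 13.2 in sham wild type. The interaction was -1.40 ± 0.25 (edgeR adjusted p = 0.0305). In non-cycling cells both irradiated wild-type libraries were above both sham libraries for these genes, and in cycling cells the groups overlapped. Since Cdkn1a can hold a cell out of the cycle, dividing the cells by proliferation genes may itself sort on it. This was not tested. Both calls were lost without the second sham library (-0.56 for Cdkn1a and -1.10 for Phlda3) or without the first irradiated wild-type library (-0.58 and -1.29).

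Ccl12, a monocyte chemokine, had 222 and 304 CPM in irradiated STING knockout, 314 and 283 in irradiated wild type and 309 and 234 in sham wild type in cycling cells. In non-cycling cells it had 244 and 460.3 CPM in irradiated STING knockout, 664 and 519 in irradiated wild type and 246 and 197 in sham wild type. The interaction was -1.18 ± 0.13 (edgeR adjusted p = 0.000314). Cd163 was lower after irradiation in both populations, by 1.56 in non-cycling and 2.74 in cycling cells on the log2 scale, an interaction of -1.18 ± 0.22 (edgeR adjusted p = 0.0392). Its call was lost without the first irradiated wild-type library (-1.0) and without the first sham library (-1.09). The number of interaction calls was higher without either knockout library (40 each), without the second irradiated wild-type library (47) and without the first sham library (35).

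For irradiated STING knockout over irradiated wild type, 4 of 12883 interactions were called (0.031%), 3 positive (0.0233%) and 1 negative (0.00776%). They were the neutrophil genes S100a8 (1.90 ± 0.22), S100a9 (1.60) and Retnlg (1.66) and the plasma cell gene Jchain (-4.86). S100a8 had 442 and 686 CPM in irradiated STING knockout, 35.6 and 157 in irradiated wild type and 108 and 1367 in sham wild type in cycling cells. Non-cycling cells had 714 and 693 CPM in irradiated STING knockout, 222 and 603 in irradiated wild type and 381 and 3263 in sham wild type. Its spread between the 2 sham libraries was larger than the difference between the genotypes, and the part of neutrophil transcripts in it was not tested. Every library left out raised this count, to between 7 and 28, with 7 without the second and 28 without the first knockout library, 16 and 19 without the first and second irradiated wild-type library and 13 and 15 without the first and second sham library.

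**Figure D5:**
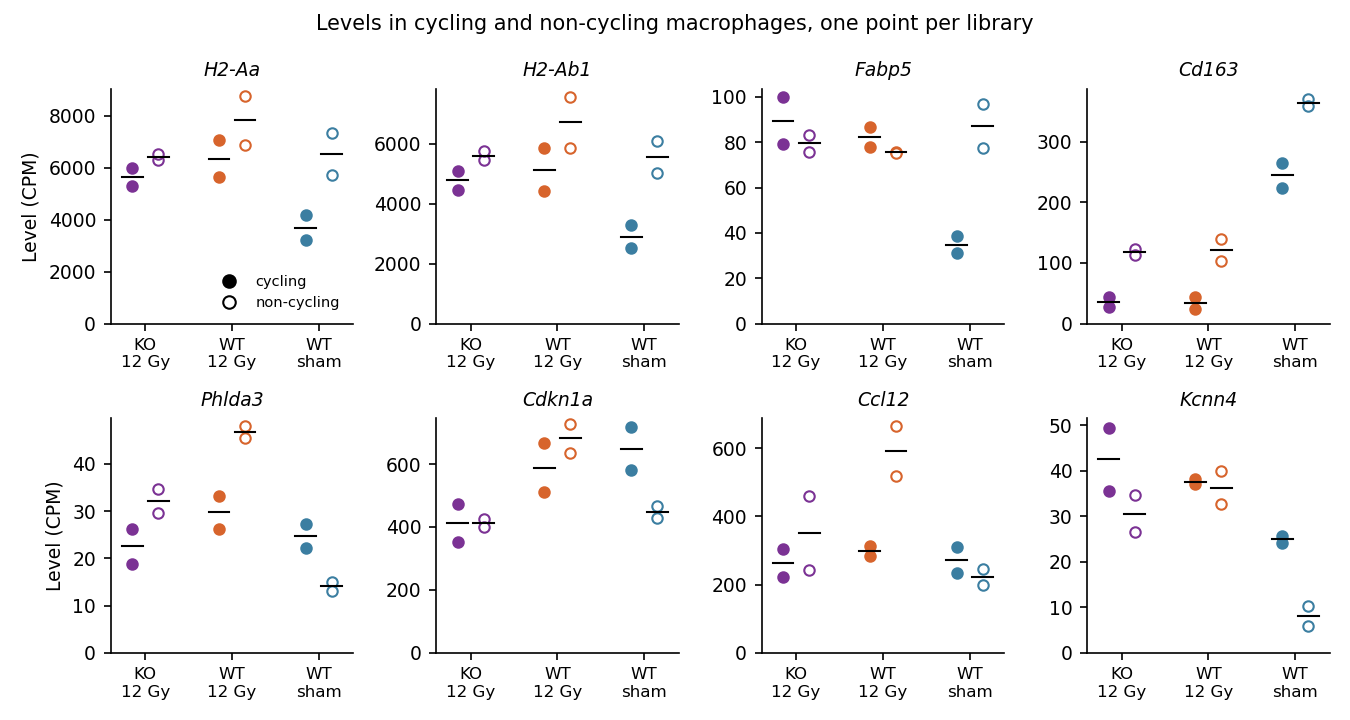
Summed expression (CPM, one panel per gene) of 8 genes in cycling (filled) and non-cycling (open) macrophages of each library, with groups ordered irradiated STING knockout, irradiated wild type and sham wild type. H2-Aa and H2-Ab1 are lowest in the cycling sham libraries, and Phlda3 and Cdkn1a separate irradiated from sham wild type in non-cycling cells.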

How the data were processed

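CD45+ cells were profiled with the 10x Genomics 3′ version 3 kit, per the labels' protocols. Values are unnormalized UMI counts, as deposited and per the file headers, one matrix a library, made with Cell Ranger 5.0.0 on mm10, per the submitters' processing notes. Seurat 3 is also named there, with no role given. Of 32285 genes 99.6% were placed on GRCm38 by GENCODE annotation. The 6 libraries held 31650962 to 59675213 UMIs in 4556 to 9319 barcodes.

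Members, gene lists and tests were chosen with earlier results of these data known. UMI counts were summed per library and population. They were tested over all 6 libraries with edgeR 4.0.16 (filterByExpr, TMM, quasi-likelihood test, Benjamini-Hochberg adjusted p below 0.05) in R 4.3.3. The fits were also run on simulated counts with a fixed dispersion and large fold changes only. Smaller changes and the spread of these libraries were not covered by that run. Cycling was set against non-cycling with the library as a block. Fold changes are log2 ± SE. Shares used cells thinned to 3000 UMIs in Python 3.11.15 and exact permutation tests over libraries. Doublets were kept, since the automatic threshold of scrublet (scanpy 1.11.5) marked at most 3 cells a library, and the highest scores were removed as an alternative, at 0.8% per 1000 cells.

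Named genes were those of the rule, Lyve1, Folr2, Timd4 and Ccr2, up to 10 called genes in each direction whose libraries did not overlap and that averaged at least 20 CPM, and up to 4 called members of each list. Some genes that this rule names are not reported here. Alternatives were DESeq2 1.42.0, no count filter, 5% mitochondrial UMIs, 4 proliferation UMIs, 20 complement UMIs, depths of 2000 and 5000 UMIs, the replicate block, the compared libraries alone and leaving out each library. The rule at 3000 UMIs, and the gate at full depth with thinned proliferation genes, were added after seeing the data.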

Additional observations from a re-analysis of the deposited data

Results flagged for a closer look

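The results here are those in which the group difference itself differed between cycling and non-cycling macrophages by the interaction test of edgeR (library as a block, adjusted p below 0.05). Values are log2 differences of the 2 responses, cycling minus non-cycling.

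For irradiated over sham wild type, the difference was positive for the MHC class II genes H2-Ab1 (0.64), H2-Eb1 (0.62), H2-Aa (0.61) and Cd74 (0.57). It was also positive for Fabp5 (1.53), Spp1 (1.69) and Il1b (1.00). It was negative for the p53 targets Phlda3 (-1.40) and Cdkn1a (-0.67), the chemokine Ccl12 (-1.18) and Mmp12 (-0.79). The potassium channel Kcnn4 (-1.53), the actin-severing protein Gsn (-1.09), the monocyte gene Ly6c2 (-2.17) and Cd163 (-1.18) were negative too. For Cd163 the negative value is a larger fall in cycling cells, as given above. Ly6c2 had 5.25 and 12.7 CPM in irradiated STING knockout, 8.12 and 4.65 in irradiated wild type and 14.1 and 27.3 in sham wild type in cycling cells. In non-cycling cells it had 14.5 and 23.7 CPM in irradiated STING knockout, 23.4 and 16.6 in irradiated wild type and 10.9 and 16.7 in sham wild type. In cycling cells both irradiated wild-type libraries were thus below both sham libraries, and in non-cycling cells these groups overlapped.

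The cell cycle genes Ube2c (-1.71), Ccnb2 (-1.69), Stmn1 (-0.87) and Lockd (-1.90) gave negative differences too, as did Gm42047 (-1.94). The proliferation genes that divided the cells move with these genes, and the division may also sort on Cdkn1a. The part of the division in the values was not tested. Mmrn1, a gene of lymphatic endothelium, gave 9.82 from 0 and 11.3 CPM in irradiated wild type and 0 and 0 CPM in sham wild type in cycling cells, and from 0 and 11.1 CPM in irradiated wild type and 29 and 0.883 CPM in sham wild type in non-cycling cells, so it rests on single libraries. The 11 endothelial markers summed to 285 and 618 CPM in cycling cells of irradiated wild type and 559.7 and 253 CPM in those of sham wild type, and their part was not tested.

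For irradiated STING knockout over irradiated wild type, the difference was positive for the neutrophil genes S100a8 (1.90), Retnlg (1.66) and S100a9 (1.60), and negative for Jchain (-4.86). Jchain had 0 and 1.19 CPM in irradiated STING knockout and 0 and 176 CPM in irradiated wild type in cycling cells, so the second irradiated wild-type library sets its value. The summed neutrophil and B cell markers given above varied between libraries of a group as well, and their part was not tested.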

How the results depend on the processing

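The share of cycling cells kept its direction in irradiated wild type over sham and in STING knockout over sham under every alternative, in percentage points. Irradiated minus sham wild type was 4.15 at 2000 UMIs, 6.09 at 5000, 7.01 without thinning, 3.89 at 5% mitochondrial UMIs, 5.38 without the highest doublet scores, 4.35 at 4 proliferation UMIs, 5.21 at 20 complement UMIs, 2.63 over all kept cells, 5.17 with the gate at full depth and 5.41 to 5.57 when 1 library was left out. Knockout minus irradiated wild type was -1.22 at 2000 UMIs, -3.27 at 5000, -0.0877 without thinning, -1.05 over all kept cells, -1.59 with the gate at full depth and -2.37 to -1.77 without 1 library, and reversed to 0.361 at 5% mitochondrial UMIs. Knockout minus sham wild type was 2.93, 2.82 and 6.93 at those depths, 4.25 at 5% mitochondrial UMIs, 2.27 at 4 proliferation UMIs, 1.58 over all kept cells and 3.12 to 3.72 without 1 library. The resident minus Ccr2 class difference in percent cycling was -3.42 at 2000 and -5.83 at 5000 UMIs and -4.93 to -3.64 without 1 library.

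Counts of calls moved more. For irradiated over sham wild type, knockout over irradiated wild type and knockout over sham they were 109, 56 and 170 with DESeq2, 513, 242 and 639 with no count filter, 131, 29 and 125 without the highest doublet scores and 11, 5 and 21 at 4 proliferation UMIs. At 5% mitochondrial UMIs, with 14 and 15 sham cells, they were 1, 0 and 0 by edgeR (523, 279 and 586 at an unadjusted p below 0.05). With the rule at 3000 UMIs they were 36, 12 and 39, and knockout over sham gave 102 at 20 complement UMIs. Without 1 library they ranged over 0 to 66, 7 to 16 and 8 to 71. Interaction calls for irradiated over sham wild type were 46 without the highest doublet scores, 7 at 5% mitochondrial UMIs, 136 with no filter and 22 to 47 without 1 library. For knockout over irradiated wild type they were 2 with DESeq2, 1 at 4 proliferation UMIs, 12 without the highest doublet scores, 109 with no filter and 7 to 28 without 1 library. The identity genes that differed between cycling and non-cycling cells numbered 24 to 35 under all alternatives, against 32. The cause of these moves was not tested.

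The replicate numbers were not used to pair the samples in the main fits. Deviations from group means correlated at -0.0009, 0.06 and -0.24 between groups. With 2 libraries a group these values cannot exclude a batch shared by replicate number. With the replicate block the counts were 17, 11 and 50, and Timd4 in knockout over irradiated wild type turned to -0.13. Other reversed values, none of them called, were at 5% mitochondrial UMIs Xlr (0.56, irradiated over sham wild type), Lyve1 (-0.30, knockout over irradiated wild type), Gsn (0.72) and Jchain (1.40) in the interactions, and with the rule at 3000 UMIs Lyve1 (-0.055) and Mmp12 (0.23, interaction). Over the fits without 1 library, Lyve1 in that comparison ranged from -0.24 (without the first irradiated wild-type library) to 0.67 and Timd4 from -1.83 (without the second knockout library) to 0.78, with -0.23 without the first irradiated wild-type library. With 98 and 102 sham cycling cells, small differences in low genes were not detectable at this depth.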

Other observations

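Few regulators of division were called between irradiated and sham wild-type cycling macrophages, which had been chosen by proliferation genes. Of 13 tested CDK inhibitor and quiescence genes none was called by edgeR in irradiated over sham wild type (3 at an unadjusted p below 0.05, 0 called by DESeq2), with a median of -0.21 and 0 positive. Cdkn1b (p27), which holds cells in G1, had 49.5 and 47.6 CPM in irradiated STING knockout, 41.8 and 36.2 in irradiated wild type and 44.2 and 50.5 in sham wild type, and its log2 fold change in irradiated over sham wild type was not called (-0.21, edgeR adjusted p = 0.65). Of 17 G1 cyclin and E2F genes Ccnd1 alone was called in that comparison. Of 21 tested genes of the macrophage growth factor list Klf2 alone was called, and Csf1r, given above, had a log2 fold change of -0.30 (edgeR adjusted p = 0.241). Of 7 listed genes of the STING pathway 4 passed the filter on low counts and none was called by edgeR in irradiated over sham wild type (1 at an unadjusted p below 0.05, 0 called by DESeq2) or in irradiated STING knockout over irradiated wild type (0 and 0).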
